A study of Mus musculus with 4 samples.

Results

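Immunoglobulin genes and genes of plasma cells, the cells that secrete antibody, were followed on 4 arrays of mouse liver RNA. The group holds 8 genes, Jchain, Ighm, Igha, Igkv8-30, Mzb1, Cd79a, Cd79b and Tnfrsf17, out of 18193 genes with a symbol of their own on the array. They were chosen by name with their treated-against-control differences already in view, so those differences are given here as a description, without a test. All probe sets annotated to 1 of the 8 symbols alone were used, 20 of 45037, because probe sets of a gene differed from each other. Ighm had 11 probe sets, Igha 3, and each of the other 6 genes a single one.

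All mice carried the genotype Metff/ff:ERCre+/+, a Met gene flanked by recombination sites together with a Cre recombinase that tamoxifen switches on. In the treated group, which the labels call delta MET + EGFRi, tamoxifen in corn oil was injected on 5 days to delete exon 16 throughout the body; Met is the receptor that binds hepatocyte growth factor. After 4 days of rest these mice ate canertinib, which blocks signalling of the EGF receptor, at an intended 80 mg/kg/day. Control littermates received corn oil only, and livers were taken at day 7 and day 10. The effects of Met loss, of tamoxifen, of canertinib and of any change in food intake therefore cannot be told apart. Neither Met deletion nor canertinib was restricted to hepatocytes, so B lineage cells anywhere in the body were exposed as well. RNA of pooled livers was put on 1 array for each group and day, which gives 2 arrays per group, of different days. How many animals were pooled is not stated in the labels, and p-values measure only the spread between these arrays. The median signal lay between 210.5 and 223.9 units on the 4 arrays, and r between the log2 signals of any pair of arrays was at least 0.923 and at most 0.948 over all probe sets. Albumin (Alb), the defining product of hepatocytes, read between 71295 and 78532 signal units on every array. Other hepatocyte genes were less even. Of 16 hepatocyte probe sets, both treated arrays lay above both controls for 5 and below them for 2. Hnf4a, on probe set 1427001_s_at, read 10643 and 13262 units in control livers and 22745 and 20477 in treated livers.

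An antibody consists of heavy chains, encoded by loci such as Ighm for IgM and Igha for IgA, and light chains of the kappa or lambda type, assembled from variable segments such as Igkv8-30. B cells carry antibody on their surface with Cd79a and Cd79b, the chains that pass the signal of the B cell receptor into the cell. Plasma cells instead secrete it, and Jchain encodes the joining chain that links IgM and IgA into polymers. In the liver and gut such polymers are carried across epithelia into bile and lumen by the polymeric immunoglobulin receptor Pigr.

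Promoters of the secreted joining chain and of the surface receptor chain are shown because Jchain was several-fold higher in treated livers and Cd79a was not. RefSeq promoter windows of GRCm38.p6, from 250 bases before to 50 after the gene start, are used here for Jchain, Cd79a and Tnfrsf17, and the first 2 are printed 5′ to 3′. The Jchain window is chr5:88527848-88528147 on the minus strand, and that of Cd79a is chr7:24897247-24897546 on the plus strand. Capitals mark the E-box CANNTG and the Ets core GGAAGT, searched on both strands.
Jchain: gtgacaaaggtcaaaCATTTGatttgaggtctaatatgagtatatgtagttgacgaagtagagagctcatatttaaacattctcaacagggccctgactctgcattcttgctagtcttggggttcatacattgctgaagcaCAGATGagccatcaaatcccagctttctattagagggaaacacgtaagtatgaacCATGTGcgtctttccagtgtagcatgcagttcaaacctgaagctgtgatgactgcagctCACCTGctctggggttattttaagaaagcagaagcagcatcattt
Cd79a: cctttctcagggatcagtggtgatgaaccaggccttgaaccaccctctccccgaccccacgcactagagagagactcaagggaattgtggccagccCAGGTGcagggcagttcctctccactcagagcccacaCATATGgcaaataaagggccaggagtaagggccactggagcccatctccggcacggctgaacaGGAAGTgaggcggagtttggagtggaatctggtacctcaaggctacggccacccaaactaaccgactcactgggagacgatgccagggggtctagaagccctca
The Jchain window held 4 matches to CANNTG and 0 to GGAAGT, and the Cd79a window held 2 and 1. No overlap between the motifs occurred in these windows. The octamer ATGCAAAT, known from immunoglobulin promoters, had 0 matches in either window. Of 32851 windows of this length, 72.3% held CANNTG, 23.8% GGAAGT and 1.74% ATGCAAAT. A match is only a stretch of letters and shows no binding.

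Some probe sets of the antibody chain genes and that of Jchain were several times higher in treated than in control livers at both days, and those of the B cell receptor chains were not. Of the 20 probe sets 7 were at least 2-fold higher at day 7 and at day 10, against 1.73% of all 45037 probe sets, and 0 were at least 2-fold lower at both days, against 1.28%. The 7 belonged to Jchain, Igkv8-30, Ighm and Igha, and Mzb1, Cd79a, Cd79b and Tnfrsf17 had none. Both treated arrays lay above both control arrays for 10 of the 20 (16% of all probe sets) and below them for 2 (17.2%), and for 8 the groups overlapped. Nothing is read from these shares, since the genes were picked from this contrast. In bulk liver RNA, more cells of a type and more RNA per cell cannot be told apart. Signals under a floor of 64.8 units, which is the 25th percentile, were replaced by it before fold and log2 values were taken, so that folds of dim probe sets are understated. The SE given with a log2 difference is limma's, from 2 arrays per group.

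Jchain read 106 and 150 units in control livers at day 7 and day 10, and 1204.5 and 1282 in treated livers. The groups lay far apart and the 2 treated arrays were close to each other. Jchain was thus higher 11.3-fold at the earlier and 8.54-fold at the later day, with a mean log2 difference of 3.30 ± 0.29 (SE, n = 2 arrays per group). Igkv8-30, a variable segment of kappa light chains, had the single probe set 1452463_x_at. By the maker's naming, probes of sets ending in _x_at also match other sequences, so the signal may not be of this segment alone. This probe set read 56.7 and 18.3 units in control livers, both under the floor, and 1237 and 1149 units in treated livers. Its difference was therefore at least 19.1-fold at day 7 and at least 17.7-fold at day 10. For these 2 genes the treated signals of the days were close, with day 10 over day 7 ratios of 1.06 for Jchain and 0.929 for Igkv8-30.

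Igha, the heavy chain of IgA, was higher in treated livers on all 3 of its probe sets, and each treated signal was larger at day 10 than at day 7. Probe set 1425763_x_at read 98.7 and 79.5 units in control livers and 733 and 1859 in treated livers. Probe set 1421653_a_at read 72.0 and 57.4 units in control livers and 549 and 879 in treated livers. On both the groups were far apart, and the folds were 7.43 and 7.63 at day 7 and 23.4 and at least 13.6 at day 10, the last against a control signal under the floor. The mean log2 differences were 3.72 ± 0.48 and 3.35 ± 0.42 (SE, n = 2). The brightest Igha probe set, 1429381_x_at, read 854.5 and 536 units in control livers and 1100.2 and 1880.5 in treated livers. Its groups did not overlap either, but the day 7 fold of 1.29 kept it out of the 2-fold count, and its mean log2 difference was 1.09 ± 0.36 (SE, n = 2). From day 7 to day 10 the treated signals of the 3 probe sets differed by ratios of 2.54, 1.60 and 1.71, each a ratio of single arrays without a replicate.

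Ighm, the heavy chain of IgM, split by probe set. Of its 11 probe sets 3 were at least 2-fold higher at both days, 3 above the filter on dim probe sets were not, and 5 lay under that filter. The filter kept probe sets with a mean log2 signal above the median, a signal of 204 units. The brightest, 1427351_s_at, read 2716 and 1017 units in control livers and 9578 and 7610.5 in treated livers. Probe set 1427329_a_at read 1080.2 and 359 units in control livers and 3221 and 2794 in treated livers. In both the control signal was lower at day 10 than at day 7, by ratios of 2.67 and 3.01, while the treated signals differed less between the days. The folds were accordingly larger at day 10 (7.48 and 7.79) than at day 7 (3.53 and 2.98). Probe set 1425385_a_at had steady controls, at 146 and 159 units, and treated signals of 909 and 697 units. The fold was 6.22 at day 7 and 4.39 at day 10. The mean log2 differences of the 3 were 2.36 ± 0.45, 2.27 ± 0.49 and 2.39 ± 0.29 (SE, n = 2).

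The other Ighm probe sets did not share this difference. Probe set 1427870_x_at read 1290 and 978 units in control livers and 1379 and 1312 in treated livers. Its day 7 fold was 1.07 and its day 10 fold 1.34. Probe set 1452535_at read 370 and 437 units in control livers and 480 and 466.5 in treated livers. Probe set 1425247_a_at read 484 and 584 units in control livers and 457 and 752 in treated livers. The log2 differences of these 3 were 0.26 ± 0.24, 0.24 ± 0.25 and 0.14 ± 0.31 (SE, n = 2). Of the 5 dim probe sets 3 were under the floor on every array, and the other two had log2 differences of -0.29 and -0.30. Which part of the locus each probe set reads was not examined here. Without the probe sets ending in _x_at, whose probes also match other sequences by the maker's naming, 5 of 14 were at least 2-fold higher at both days.

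Mzb1, Cd79a, Cd79b and Tnfrsf17 did not show the difference seen in the antibody chains. Mzb1, an endoplasmic reticulum protein of B and plasma cells that helps antibody secretion, read 919 and 745 units in control livers and 661 and 994 in treated livers, and the groups overlapped. Its mean log2 difference was -0.03 ± 0.28 (SE, n = 2). Cd79a read 391 and 427 units in control livers and 406 and 263 in treated livers. Cd79b read 315 and 356 units in control livers and 268 and 175 in treated livers, so that both treated arrays lay below both controls. The mean log2 differences were -0.32 ± 0.32 for Cd79a and -0.63 ± 0.37 for Cd79b (SE, n = 2), and for both genes the lowest of the 4 signals was that of the treated liver at day 10. Tnfrsf17, the plasma cell receptor (BCMA) for the survival factor APRIL, was dim. It read 113 and 143 units in control livers and 240 and 89.9 in treated livers, so that the treated signal was 2.13 times the control at day 7 and below it at day 10.

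**Figure D1:**
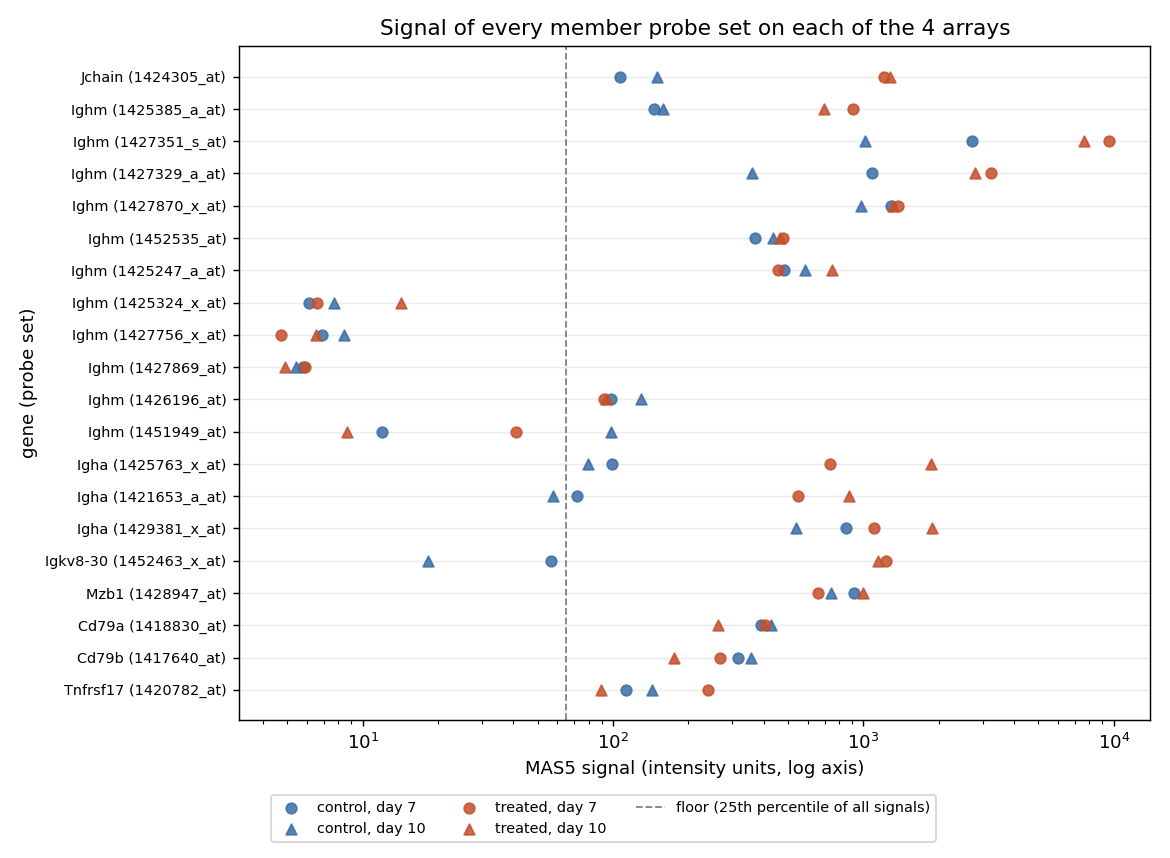
MAS5 signal (log axis) of each of the 20 probe sets on the 4 arrays, with controls in blue, treated livers in orange, circles for day 7, triangles for day 10 and a dashed line at the floor of 64.8 units. Treated signals of Jchain, Igkv8-30, 2 of the Igha and 3 of the Ighm probe sets stand well to the right of the controls, whereas those of Mzb1, Cd79a and Tnfrsf17 mix with them.

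The remaining immunoglobulin probe sets were then examined, on the question of whether antibody genes outside the group moved the same way. The limma model fitted to all 22518 kept probe sets called 66 probe sets higher (0.293%) and 43 lower (0.191%) at a Benjamini-Hochberg adjusted p under 0.05. An unadjusted p under 0.05 was reached by 2635 of them (11.7%), against which the unadjusted counts below are to be read. Another 28 probe sets carried a single immunoglobulin symbol, for 17 genes, and 23 of them were under the filter. None of the 5 above it passed limma's test, 2 of them had an unadjusted p under 0.05, and those 2 were at least 2-fold higher at both days. Their control signals lay under the filter level, so they entered the test through the treated arrays, and these counts are a description. The median log2 difference of the 28 was 0.24, against 0 over all probe sets. The lambda light chain segment Iglv1, on probe set 1430523_s_at, read 68.5 and 149.5 units in control livers and 560 and 650 in treated livers (log2 difference 2.58 ± 0.47, SE, n = 2, limma adjusted p = 0.102). The kappa segment Igkv9-120, on probe set 1460423_x_at, read 170 and 59.7 units in control livers and 501 and 459 in treated livers (log2 difference 2.19 ± 0.54, SE, n = 2, limma adjusted p = 0.202). Another Igkv9-120 probe set, 1452536_s_at, read 581 and 615 units in control livers and 545 and 591 in treated livers, a log2 difference of -0.08.

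Of 13 probe sets annotated to several immunoglobulin symbols, 3 passed limma's test, all higher, and 4 were at least 2-fold higher at both days. The 3 carry the same 5 kappa light chain symbols, Igkv8-30 among them, so they overlap a chosen gene and are no separate evidence. Probe set 1427455_x_at read 733 and 623 units in control livers and 7182.5 and 7982 in treated livers, probe set 1427660_x_at 1128 and 1014 against 7808.5 and 8083, and probe set 1452417_x_at 312.5 and 352 against 4322 and 4253. The treated signals of the 3 lay far above the controls and hardly differed between the days. The log2 differences were 3.49 ± 0.21, 2.89 ± 0.20 and 3.69 ± 0.21 (SE, n = 2), with limma adjusted p from 0.00212 to 0.0044. Of the 6 probe sets with several symbols but none of the 8 genes among them, only 1451965_at was above the filter. It did not pass, and its groups overlapped. Probe set 1424931_s_at, for the lambda light chain symbols Iglc1 and Iglv1, was under the filter and so untested. It read 10.6 and 107 units in control livers and 180 and 339 in treated livers. The 3 calls became 0 without a filter on dim probe sets, 1 without the control array of day 10 and 2 without that of day 7.

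**Figure D2:**
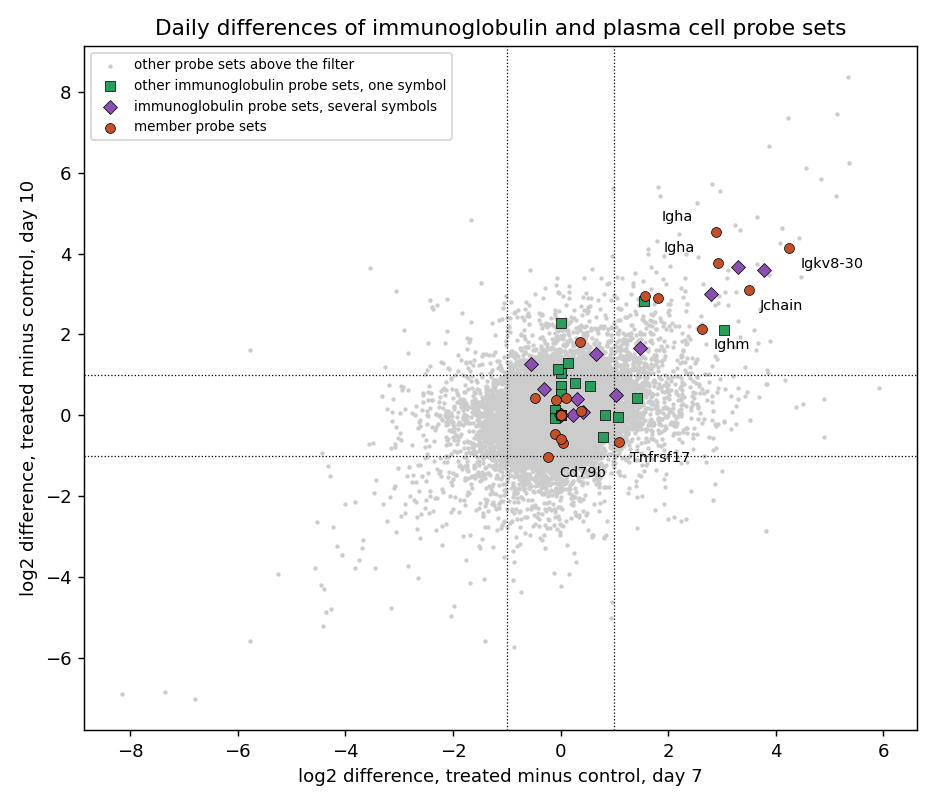
Log2 difference, treated minus control, at day 7 (x axis) and day 10 (y axis), for the 20 probe sets of the group (orange), other immunoglobulin probe sets (green, purple) and other probe sets above the filter (grey), with dotted lines at 2-fold. Of the 20 probe sets of the group, 7 lie past 2-fold on both axes in the upper right corner. Some green, purple and grey points lie there as well, while Cd79b and Tnfrsf17 lie outside it.

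Markers of B cells gave no call in either direction. Of 33 probe sets for 19 B cell genes 17 were above the filter, 0 passed limma's test and 2 had an unadjusted p under 0.05. Their median log2 difference was 0, and 0 were at least 2-fold apart at both days. Ms4a1 (CD20) read 902 and 919 units in control livers and 837 and 822 in treated livers, and Cd22, an inhibitory receptor, 670 and 728.5 units against 581.5 and 796. The 2 with an unadjusted p under 0.05 went in opposite directions. Pax5, on probe set 1454401_at, read 1743 and 1287 units in control livers and 911.5 and 816 in treated livers. Pou2f2, on probe set 1427725_a_at, read 210 and 244 units against 370 and 401. Each of these genes also had a probe set on which the groups overlapped. The summed signal of the list ranged from 9071 to 10558 units in control and from 8630 to 9798 in treated livers. Of 8 probe sets of B cell precursor genes and 24 of B cell receptor signalling 2 and 13 were above the filter. None of either list passed, with 2 and 0 at an unadjusted p under 0.05. Their medians were 0.56 and 0.10, and most precursor probe sets, 6 of 8, were under the filter. One of them, for the template-independent polymerase Dntt, was at least 2-fold higher at both days, from 32.9 and 96.8 units to 157.5 and 203 units.

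Genes of plasma cell identity gave no call. Of 17 probe sets for 11 genes 10 were above the filter, 0 passed limma's test, 2 had an unadjusted p under 0.05, and the median log2 difference was 0. At least 2-fold higher at both days was a probe set each of Tent5c, Ccr10 and Irf4. Tent5c, a poly(A) polymerase that stabilises antibody mRNA, read 114 and 252 units in control livers and 433 and 758.5 in treated livers (limma adjusted p = 0.255). The chemokine receptor Ccr10, which IgA plasma cells carry, read 80.9 and 102 units in control livers and 259 and 282 in treated livers, and the transcription factor Irf4 42.2 and 36.6 units against 221 and 130, both under the filter and so untested. Another Irf4 probe set, 1421174_at, went the other way, at 215 and 338.5 units in control livers and 155 and 167 in treated livers. Pou2af1, a coactivator in B lineage cells, was dim as well, at 150 and 63.4 units in control livers and 208 and 178 in treated livers. Sdc1 (CD138) is carried by plasma cells and also by hepatocytes. Its brightest probe set read 7159 and 7763 units in control livers and 6619 and 7162.5 in treated livers. On probe set 1415944_at both treated signals were below the controls, at 968 and 1352 units against 1960.3 and 2317 (log2 difference -0.90 ± 0.25, SE, n = 2, limma adjusted p = 0.268). Prdm1, the regulator of plasma cell differentiation, read 477 and 494 units in control livers and 320 and 581 in treated livers.

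The secretory pathway, which plasma cells and hepatocytes share, had its largest summed signal in the treated liver of day 10, without a call. Of 25 probe sets 23 were above the filter, 0 passed limma's test and 2 had an unadjusted p under 0.05. The median log2 difference of the 25 was 0.26. Without the treated array of day 7 the fit called 3 of the 25 higher, with a spread taken from the control arrays alone. The summed signal was 86550 and 82777 units in control livers, 83814 in the treated liver of day 7 and 160174 in that of day 10. Xbp1, a transcription factor of the unfolded protein response, read 12402 and 8427 units in control livers and 12863 and 28332 in treated livers on probe set 1420886_a_at. Such bright probe sets weigh most in the sum, and not all members rose at day 10. Hsp90b1, on probe set 1415889_a_at, read 6683 and 9292 units in control livers and 5299 and 9818 in treated livers.

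Signals that attract or sustain B lineage cells were mixed. Of 23 probe sets 10 were above the filter, 0 passed limma's test and 1 had an unadjusted p under 0.05. The median log2 difference of the 23 was 0.05. Cxcl13, the chemokine that draws B cells into follicles, read 698.5 and 173 units in control livers and 5348 and 1198 in treated livers on probe set 1417851_at. Its fold was 7.66 at day 7 and 6.91 at day 10. In both groups its signal was several times lower at day 10 than at day 7, and it did not pass (log2 difference 2.86 ± 0.85, SE, n = 2, limma adjusted p = 0.284). Another Cxcl13 probe set, 1448859_at, had smaller log2 differences, 1.07 at day 7 and 0.59 at day 10, against 2.94 and 2.79. Ccl28, a ligand of Ccr10, had the single probe set of the list at least 2-fold lower at both days, at 342 and 296 units in control livers and 120 and 142 in treated livers on probe set 1450217_at. Its brightest probe set, 1455577_at, read 942 and 891.5 units in control livers and 775 and 776 in treated livers, and on its dim probe set 1450218_at the groups overlapped. Il6 read 136 and 86.1 units in control livers and 127 and 129 in treated livers.

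Receptors of antibody gave no call. Of 18 probe sets 17 were above the filter, 0 passed limma's test and 5 had an unadjusted p under 0.05. The median log2 difference of the 18 was 0.12. Pigr, which carries polymeric IgA into bile, read between 12130 and 15574 units in control and between 12509 and 17014 in treated livers on probe set 1450060_at, and the groups overlapped. Of the IgG receptors of phagocytes, a probe set each of Fcgr1 and Fcgr3 was at least 2-fold higher at both days. Fcgr1, on probe set 1417876_at, read 255 and 183 units in control livers and 608 and 540.1 in treated livers (limma adjusted p = 0.165), and Fcgr3 454 and 259.5 units against 1067 and 612 (limma adjusted p = 0.31). Another Fcgr1 probe set, 1436625_at, read 482 and 505 units in control livers and 458 and 641 in treated livers, and its groups overlapped. Fcgr4 was higher 1.54-fold at day 7 and 1.62-fold at day 10. On no probe set of Fcgr2b, also a receptor of IgG, did both treated arrays lie above both controls. Its brightest, 1435476_a_at, read 2472 and 2199 units in control livers and 2306 and 4231 in treated livers. On 1455332_x_at both treated signals were below the controls.

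Markers of other white blood cells were set beside the antibody genes. Of 15 macrophage probe sets 2 passed limma's test, both higher, for C1qc and Vsig4. An unadjusted p under 0.05 was reached by 13, and 8 were at least 2-fold higher at both days, probe sets of Marco and C1qb among them. The median log2 difference of the 15 was 1.62, and for 14 of the 15 both treated arrays lay above both controls. The summed macrophage signal ranged from 12639 to 21250 units in control and from 44938 to 48585 in treated livers. Of 9 neutrophil probe sets 7 were above the filter and 3 passed, for S100a8, S100a9 and Prtn3. The control signals of S100a9 and Prtn3 lay under the filter level in the mean, so that these 2 entered the test through the treated arrays. The sum of the neutrophil list ranged from 3095 to 3440 units in control and from 10274 to 13102 in treated livers. The list did not rise as a whole. Both treated arrays lay above both controls for 4 of the 9, and the median log2 difference was 0.49. For Camp, Cxcr2, Elane, Ltf and Mpo the groups overlapped. Without a filter on dim probe sets 0 of either list passed. Without the intensity trend, as with day as a block, 0 macrophage and 2 neutrophil probe sets passed. Leaving out either control array ended both macrophage calls and left 1 neutrophil call, as did a filter at the 75th percentile for the neutrophil list. With probe sets averaged per gene 1 macrophage and 2 neutrophil genes passed. Of 20 T cell, 6 NK cell and 22 plasmacytoid dendritic cell probe sets 8, 3 and 9 were above the filter and so tested. None of these passed, with 0, 1 and 1 at an unadjusted p under 0.05. Of 8 erythroid, 7 intestinal, 3 pancreatic and 16 hepatocyte probe sets 2, 2, 1 and 16 were above the filter and so tested. None of these passed either, with 1, 1, 0 and 4 at an unadjusted p under 0.05. Fabp2 was the only intestinal gene at least 2-fold apart at both days. It read 3210 and 3734 units in control livers and 736 and 1815 in treated livers (limma adjusted p = 0.239). The T cell sum was 4674 to 5516 units in control and 4388 to 5895 in treated livers. The part of macrophages and neutrophils in the antibody signals was not tested.

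**Figure D3:**
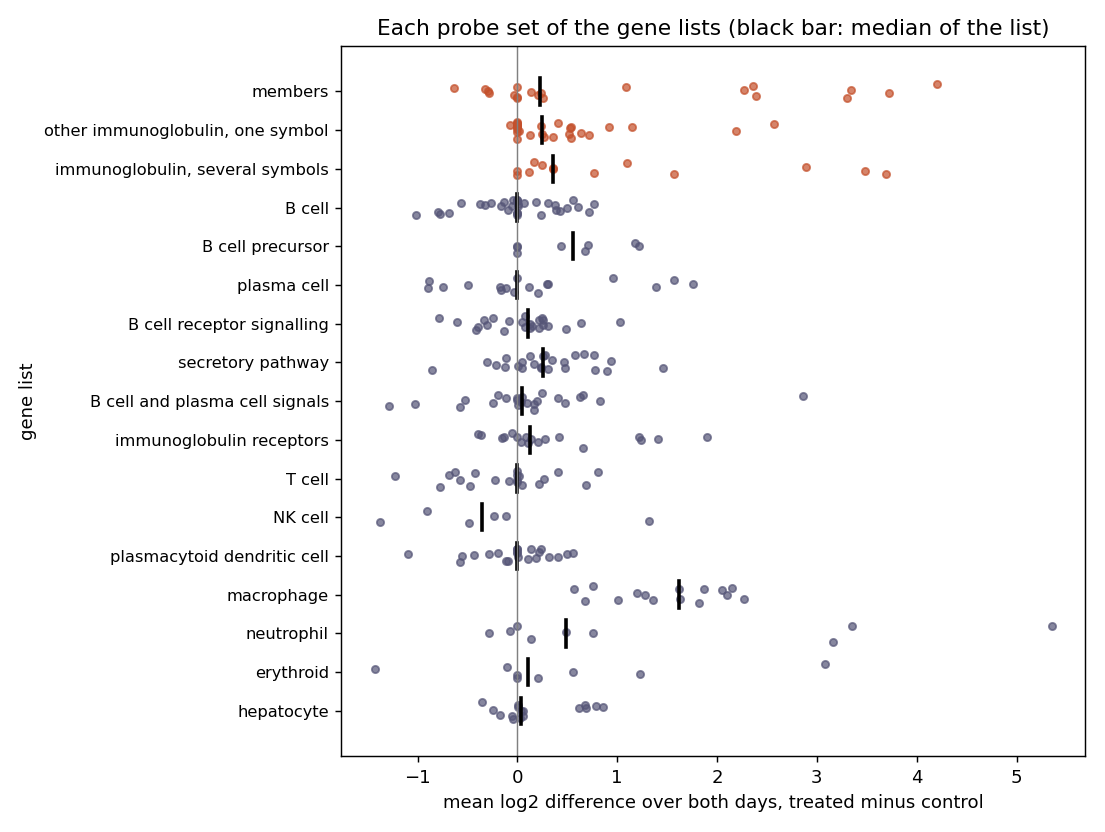
Mean log2 difference over both days, treated minus control, of each probe set (points, spread vertically at random) of the group and of the gene lists, with a black bar at the list's median. In the 3 antibody lists a few probe sets lie between 2 and 5 while most lie near 0, B and plasma cell lists centre on 0, and the macrophage list lies above 0 as a whole.

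The genes whose profiles over the 4 arrays lay closest to Jchain, by Euclidean distance between log2 profiles centred on their means, were Igfbp1 (distance 0.34), Fgl1 (0.36), Mmd2 (0.49), S100a9 (0.52) and Wbp2nl (0.56), where the median distance over 18908 probe sets was 3.37. None of the 5 is an immunoglobulin gene, but the comparison left out the genes of the group and all probe sets annotated to several symbols. The other chosen antibody genes and the kappa light chain probe sets with several symbols could therefore not appear. Whether they lie closer to Jchain cannot be read from this ranking. For the brightest Ighm probe set the closest was another immunoglobulin segment, Igkv9-120 (0.22), followed by Irs2 (0.34), Nos1ap (0.40), the macrophage receptor Marco (0.41) and Tarbp2 (0.44), against a median distance of 2.64. For the brightest Igha probe set they were Sgsm1 (0.04), Herc6 (0.09), Foxp1 (0.09), Sdc3 (0.11) and Smco4 (0.11), against a median of 1.40. That probe set, 1429381_x_at, had the smallest difference of the Igha probe sets, with a day 7 fold of 1.29. Its neighbours therefore do not describe the larger differences of the other Igha probe sets. The distances describe likeness over these 4 arrays alone.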

How the data were processed

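The data are 4 single-colour Affymetrix arrays of pooled mouse liver RNA. The deposited intensity (signal) values were made by the authors with MAS5, per the submitters' processing notes. They are on a linear scale, as the values themselves show, and their scaling was kept. Of 45101 probe sets 64 array controls were left out. Symbols came from the platform annotation (34945 probe sets with a single symbol, 932 with several, 9160 with none), and 99.4% of the single ones matched the RefSeq table of GRCm38.p6 by Entrez ID, used for names only. Every value column belonged to a sample.

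Signals were floored at the 25th percentile (64.8), log2 was taken, and probe sets with a mean log2 above 7.67 entered limma 3.58.1 in R 4.3.3 (lmFit, eBayes with intensity trend, two-sided, Benjamini-Hochberg adjusted over the 22518 kept). Daily differences have 1 array per side and no test. The 8 genes, the 16 gene lists and the tests were chosen with earlier results of these data known. Every probe set of the 8 genes was described. In other lists up to 4 genes that passed or were 2-fold apart at both days were named, and further genes were named for their role after their values were seen. Iglon5, an adhesion gene whose symbol resembles the immunoglobulin ones, was left out. Of these steps only the limma fit was run on simulated data. Figures used Python 3.11.15 and matplotlib 3.10.9.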

Additional observations from a re-analysis of the deposited data

Results flagged for a closer look

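The daily differences of 4 probe sets pointed in opposite directions at day 7 and day 10, and these contrasts between days were not tested, with 1 array on each side. The log2 difference of Tnfrsf17 was 1.09 at day 7 and -0.67 at day 10, so that the later was the smaller by -1.77. Mzb1 went from -0.47 to 0.42 (0.89 between the days), Cd79a from 0.05 to -0.70 (-0.75), and the Ighm probe set 1425247_a_at from -0.08 to 0.37 (0.45).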

How the results depend on the processing

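The count of 7 of 20 probe sets at least 2-fold higher at both days was 3 of 8 genes when each gene had 1 value. The 3 were Jchain and Igkv8-30, with Ighm by the brightest probe set and Igha instead by the average over probe sets. On a single day, when an array was left out, the count of probe sets was 8, and 0 to 1 were at least 2-fold lower. None of the 7 changed direction in the 12 or 13 alternatives that gave each a log2 difference. The log2 difference ranged from 3.05 to 3.55 for Jchain and from 3.06 to 5.11 for Igkv8-30. All probe sets called higher and lower by limma numbered 0 and 0 without a filter, 24 and 22 without the trend, 22 and 20 with probe sets averaged per gene, and 154 and 106 at an adjusted p under 0.1. Leaving out 1 array gave 14 to 205 called higher and 11 to 304 called lower. Of immunoglobulin probe sets with several symbols, 3 of which passed, 0 passed without a filter. Without those carrying one of the 8 symbols (chosen after seeing the data) 0 passed, but only 1451965_at was then above the filter. Other immunoglobulin probe sets at least 2-fold higher at both days, 2 of 28, were 4 with the floor at the 10th percentile, 4 to 6 on a single day, and 1 by brightest probe set or mean. With day as a block pairing the arrays of a day (replicate block), 24 were called higher and 23 lower. Deviations of same-day arrays did not go together across the probe sets above the filter (r = -0.07). A day effect on some probe sets was not tested. Among lists with 0 calls, 1 probe set passed in some alternative in the B lineage signal, erythroid, hepatocyte, intestinal and plasmacytoid lists. The number of arrays and dim signals near the floor limit precision.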

Other observations

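Some B lineage and blood genes read differently between days or probe sets. Derl3, an endoplasmic reticulum protein abundant in plasma cells, read 927 and 182 units in control livers and 172 and 1311 in treated livers, which gives log2 differences of -2.43 for the earlier and 2.85 for the later day. Fkbp11, a secretory pathway gene, read 992 units in the treated liver of day 10 on probe set 1417267_s_at and 65.1 to 145 on the other arrays, while its other two probe sets showed no such value. Of the erythroid genes, Slc4a1 on probe set 1416464_at read 60.1 and 51.9 units in control livers and 521 and 575 in treated livers, under the filter and so untested. Alas2 read 3971 and 3735 units in control livers and 1043 and 1977 in treated livers (limma adjusted p = 0.179). The IgM-binding macrophage protein Cd5l read 5017 and 2007 units in control livers and 9618 and 14525 in treated livers (limma adjusted p = 0.19).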
